A study of Mus musculus with 14 samples.

Results

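This report describes what a normal mouse lung looks like on an expression array after its vessels have been flushed. It covers the 5 arrays labelled normal out of 14 in the study, chosen by their titles and not by any measured value. The animals were BALB/c mice that received PBS and no tumour cells. The other 9 arrays came from BALB/c lungs with a tumour grown in the fourth mammary fat pad, 4 from 4T1 cells, which spread to the lung, and 5 from 67NR cells, which the labels call non-metastatic. All lungs, normal ones included, were taken 6 days after inoculation or at a tumour size of about 50 mm3, after PBS perfusion meant to remove blood. Each tumour class is 1 cell line, and the labels do not say that each array is its own mouse, so the spread given below is that between samples and may be partly technical.

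The gas exchange surface of the lung is made of thin type 1 cells and of type 2 cells, which secrete surfactant, laid against a dense capillary bed. Club cells line the small airways, secrete protective proteins and carry detoxifying enzymes, and ciliated cells clear the airways. Alveolar macrophages patrol the air spaces, while lymphocytes, monocytes and neutrophils sit in the vessels and the tissue between the alveoli.

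The table held linear intensities for 45101 probe sets, of which those with 1 gene symbol gave 18194 genes. Levels below are log2(intensity + 16) of each gene's brightest probe set. The median intensity of the 5 normal arrays lay between 114.3 and 116.1. Signal at the 3' end of the Gapdh control over that at its 5' end, a measure of RNA integrity, lay in log2 between -0.55 in normal replicate 5 and -0.41 in normal replicate 2. The same ratio for the actin control lay between 0.32 in normal replicate 2 and 0.45 in normal replicate 3, the highest of all 14 arrays. Genes above background differed between pairs of normal arrays by a root mean square of 0.17 log2 (replicates 4 and 5) to 0.25 log2 (replicates 1 and 3). More than 2-fold differences were seen for 14 genes in the closest pair and for 88 in the most distant. Each probe set has its own brightness per transcript, so an order of genes by level is an order of signal and not of transcript number.

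Background was set at 7.29, the 95th percentile of 85 probe sets for smell and taste receptors, whose median level was 5.62. By that measure 10506 genes, or 57.7%, were above background on all 5 normal arrays, 6397 were at or below it on all 5, and 1291 were mixed. The median level was 8.06 over all genes.

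The brightest genes were a mixture of genes used by every cell and products of lung epithelium. Surfactant protein A (Sftpa1) was the third brightest gene, at 13.96, 13.95, 13.90, 13.78 and 13.74 in normal replicates 1 to 5. Scgb1a1, the secretoglobin of club cells, was seventh, at 13.95, 13.87, 13.81, 13.65 and 13.56. The 5 arrays thus lay close together for both genes, with the highest value in replicate 1 and the lowest in replicate 5. A second Sftpa1 probe set, at 12.85 ± 0.04 (SD, n = 5), was lowest in replicate 5 but highest in replicate 4.

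Around these lay Rps29, the brightest gene at 13.95 ± 0.03 (SD, n = 5), and Eef1a1, the translation elongation factor, at 13.88 ± 0.07 (SD, n = 5). The cytoskeletal genes Actb, Tmsb4x, Gsn, Sptbn1 and Actg1 had mean levels from 13.55 to 13.85. Of the 25 brightest genes 6 encoded ribosomal proteins (Rps29, Rps28, Rpl38, Rpl13a, Rps3a1 and Rps10), as did 24 of the 100 brightest. Ribosomal genes have many near-identical pseudogene copies, and Actb and Actg1 or Lyz1 and Lyz2 are close copies of each other, so how their signal divides is uncertain.

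Lung enzymes were prominent in this group. Inmt, a methyltransferase that is abundant in lung, had values of 13.83, 13.78, 13.76, 13.62 and 13.53. Cyp2f2, a cytochrome P450 of club cells, had values of 13.61, 13.61, 13.58, 13.40 and 13.23, and Cbr2, a carbonyl reductase of lung, had a mean of 13.58 ± 0.14 (SD, n = 5). Epas1, a hypoxia-inducible transcription factor of endothelium, reached 13.58 ± 0.13 (SD, n = 5). The other members of the 25 were the iron store Fth1, Tpt1, the methyltransferase-like gene Mettl7a1, B2m of the class I antigen complex and Npc2, a cholesterol carrier of lysosomes, which was the dimmest of them at 13.48 ± 0.04 (SD, n = 5).

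**Figure D1:**
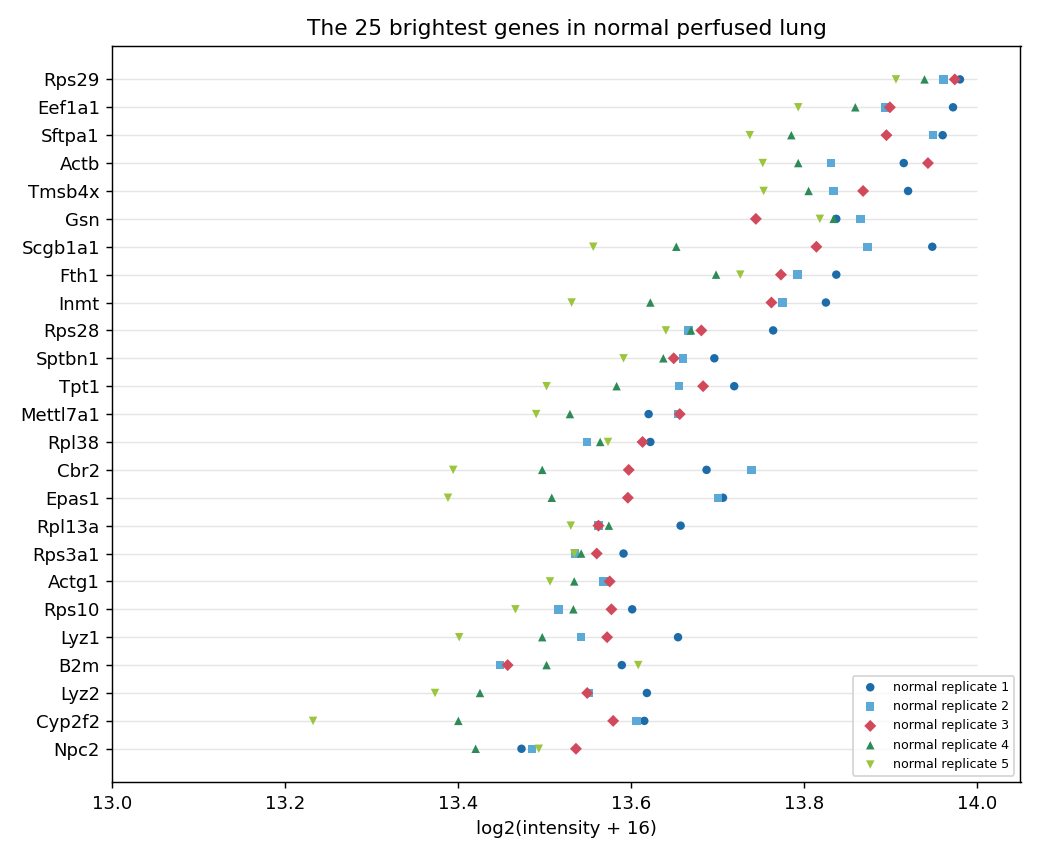
Levels of the 25 brightest genes, as log2(intensity + 16) with 1 symbol per normal array. Replicate 5 is the lowest symbol for most genes, down to 13.23 for Cyp2f2, and the whole set spans less than 1 log2 unit.

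The 25 brightest genes carried a median of 2.57% of the summed signal of all genes, the 100 brightest 8.19% and the 1000 brightest 39.0%. The share of the 100 brightest ranged only from 7.76% to 8.38% across the 5 arrays. Their mean deviation from the normal mean was 0.05 log2 in replicate 1 and -0.06 in replicate 5, where all genes together deviated by 0.0016 and 0.0059. In replicate 1, 86 of these 100 genes were above their own mean, against 22 in replicate 5. The same replicate 5 had the lowest 3' to 5' Gapdh ratio, and the part of RNA quality in this difference was not tested.

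The alveolar epithelium was almost fully detected. Of 25 type 2 cell genes with a value, 23 were above background on all 5 arrays, with a median level of 12.34. Sftpc, the surfactant protein specific to type 2 cells, stood at 13.17, 13.06, 13.07, 12.92 and 12.73. Replicate 5 was again the lowest, and the range was under 0.5 log2. Nkx2-1, the transcription factor of lung epithelium, stayed under background at 7.10 ± 0.14 (SD, n = 5), as did Acoxl.

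All 22 type 1 cell genes were above background on all 5 arrays, with a median of 12.08. Cav1, which builds caveolae, had a mean of 13.40 ± 0.11 (SD, n = 5). Hopx, a homeodomain protein, followed at 13.39 ± 0.07 (SD, n = 5). Ager, the receptor that marks type 1 cells, had values of 13.20, 13.22, 13.29, 13.20 and 13.10, so all 5 arrays lay within 0.2 log2. A second Ager probe set, at 13.09 ± 0.14 (SD, n = 5), spread more, from 13.209 in replicate 1 to 12.865 in replicate 5.

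The airway compartment was uneven. Of 24 genes of club and other airway secretory cells, 21 were above background on all 5 arrays, with a median of 11.16. Muc5ac, the gel-forming mucin of goblet cells, stayed at 5.52 ± 0.07 (SD, n = 5), under background. Of 26 ciliated cell genes 16 were above background on all 5 arrays, with a median of 7.77, led by Tppp3, a tubulin-binding protein, at 11.96 ± 0.15 (SD, n = 5). None of 8 basal cell genes was above background on all 5 arrays, with Krt5, the basal keratin, at 5.69, and 2 of 9 neuroendocrine genes were.

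Vessel and stromal genes were nearly all detected. All 27 endothelial genes were above background on all 5 arrays, with a median of 12.08. Ramp2, a subunit of the adrenomedullin receptor, led with 13.20, 13.30, 13.28, 13.06 and 12.89. Pecam1, the endothelial junction protein, stood at 12.06, 12.22, 12.07, 12.01 and 11.88, with replicate 2 highest and replicate 5 lowest for both genes.

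All 15 genes of the capillary subsets were above background on all 5 arrays, as were 13 of 16 for large vessels and 6 of 9 for lymphatic vessels. Of 35 fibroblast and matrix genes 34 were, with a median of 11.73. After Inmt, the brightest were the intermediate filament Vim at 13.44 ± 0.06 (SD, n = 5) and the matrix protein Sparc at 13.35 ± 0.10 (SD, n = 5). Of 22 genes of smooth muscle and pericytes 19 were above background on all 5 arrays, and 10 of 12 mesothelial genes were.

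Among leukocytes, macrophage and B cell genes were detected most fully. Of 25 alveolar macrophage genes 20 were above background on all 5 arrays, with a median of 10.07. The brightest, Fth1 and the lysozyme Lyz2, are shared with other cells. Marco, a scavenger receptor, stayed under background on all 5 arrays at 5.01 ± 0.66 (SD, n = 5), as did Pparg, Car6 and Cidec. Of 28 genes of monocytes and interstitial macrophages 24 were above background on all 5 arrays, and Csf1r, the receptor for macrophage growth factor, reached 11.68 ± 0.08 (SD, n = 5).

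Of 27 B and plasma cell genes 23 were above background on all 5 arrays, with a median of 8.80. The brightest, Cd74, the invariant chain of class II, is also made by other antigen-presenting cells. Of 22 T cell genes 13 were, with a median of 7.81, and the coreceptor Cd4 and the regulatory factor Foxp3 stayed under background on all 5 arrays. Of 19 genes of NK and cytotoxic cells 9 were, led by the granzyme Gzma at 10.86 ± 0.38 (SD, n = 5) and the chemokine Ccl5 at 9.96 ± 0.20 (SD, n = 5). Of 21 dendritic cell genes 15 were above background on all 5 arrays.

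The neutrophil genes were split. Of 31 measured, 16 were above background on all 5 arrays, with a median of 7.70. S100a8, a calcium-binding protein of neutrophils, stood at 11.26, 10.55, 10.72, 11.40 and 11.47. S100a9, which pairs with it in calprotectin, stood at 11.13, 10.44, 10.74, 11.01 and 11.41, so replicates 2 and 3 were the lowest for both. The granule genes Elane, Ctsg, Prtn3, Mpo and Camp, which are made by precursors in bone marrow, stayed under background on all 5 arrays. Not every granule gene did, since Ltf, which is also in the airway list, was above background on all 5 arrays at 8.69 ± 0.55 (SD, n = 5).

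Blood cell genes were detected in part after perfusion. Of 21 red cell genes 8 were above background on all 5 arrays, with a median of 7.15. Alas2, the heme synthesis enzyme of red cell precursors, stood at 9.63, 8.74, 9.62, 10.60 and 9.48, and the beta globin Hbb-b2 at 8.89, 8.37, 9.03, 10.05 and 9.25. Replicate 4 was the highest and replicate 2 the lowest for both. A second Hbb-b2 probe set above background ran the other way, at 7.98, 8.09, 7.58, 7.38 and 7.77, so the order of Hbb-b2 depends on the probe set. The probe sets that carry Hba-a1 or Hba-a2 alone stayed under background at 5.46 ± 0.82 and 5.05 ± 0.12 (SD, n = 5), while probe sets that several globin genes share, and Hbb-b1, were not analysed here.

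Of 21 platelet genes 11 were above background on all 5 arrays, led by the platelet chemokine Pf4 at 10.06 ± 0.25 (SD, n = 5). In bulk lung, fewer cells of a type and less RNA per cell cannot be told apart.

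Genes of neighbouring tissues were present at uneven levels. Of 26 heart muscle genes 16 were above background on all 5 arrays, with Myl4 and Myl7, light chains of atrial myosin, and the cardiac actin Actc1 near 11.3. Myh6, the alpha myosin of heart, stood at 10.86, 11.14, 11.19, 11.05 and 11.21, nearly equal on the 5 arrays. In the mouse, sleeves of heart muscle run along the pulmonary veins into the lung. Of 21 fat genes 11 were above background on all 5 arrays, against 7 of 24 for skeletal muscle, 3 of 15 for thymus, 1 of 22 for oesophagus and trachea and 4 of 39 for tissues that do not adjoin the lung.

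Xist, expressed from the inactive X chromosome of female cells, stood at 11.44, 11.32, 10.86, 11.16 and 11.20. The Y-linked genes Kdm5d, Uty and Eif2s3y stayed under background on all 5 arrays, and Ddx3y was not analysed here. The 5 arrays thus gave the same picture for these genes.

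**Figure D2:**
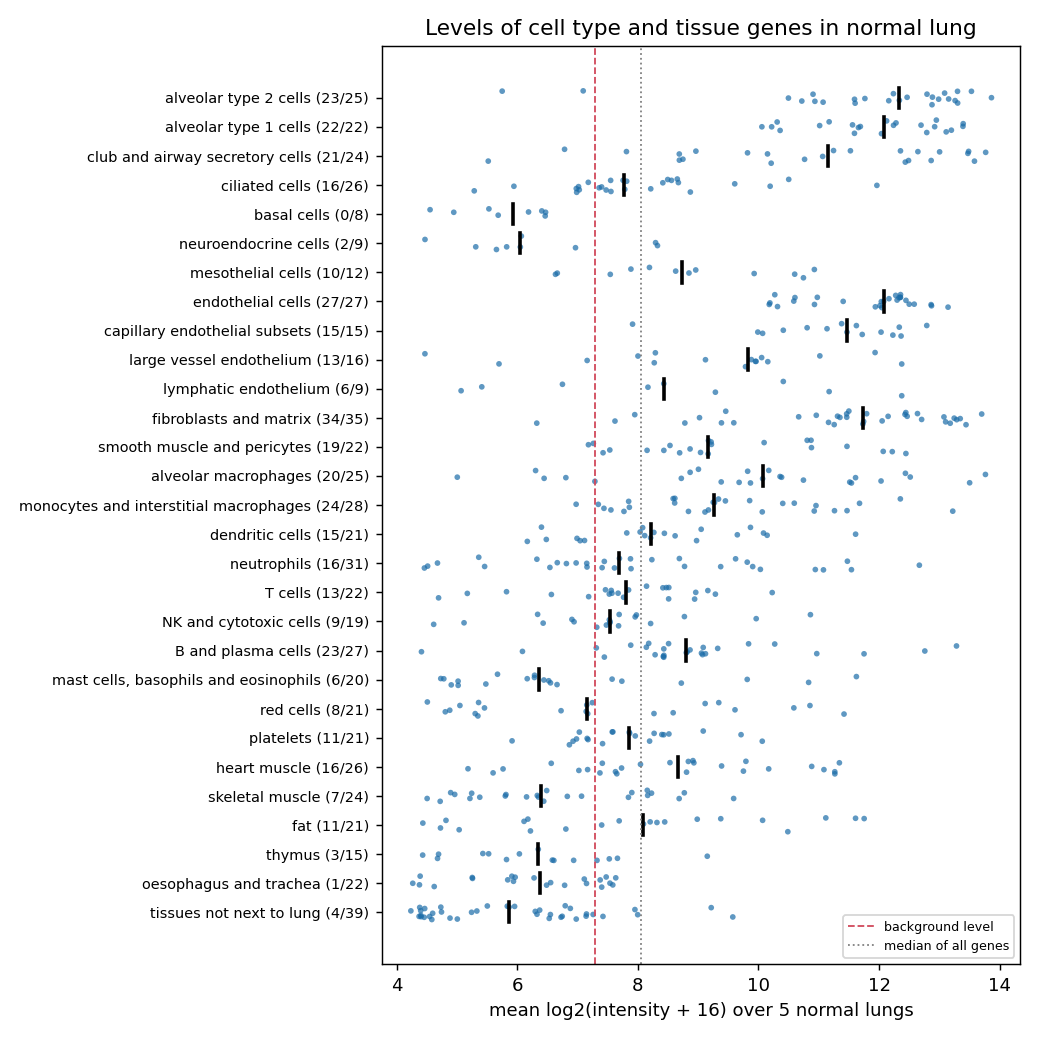
Mean level over the 5 normal arrays, as log2(intensity + 16), of each gene in lists for cell types and tissues, with 1 point per gene and a bar at the list median. In brackets stand the genes above background on all 5 arrays and the genes with a value; the dashed line is background (7.29) and the dotted line the median of all genes (8.06).

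Most genes barely differed between the 5 normal arrays. The median SD among the 11127 genes with a mean above background was 0.10 log2, and 87.9% of them spanned less than 0.5 log2 from the lowest to the highest array. A span over 2-fold was seen for 186 genes, or 1.67%, and an SD over 1 for 18. The SD was larger for dim genes, with a median of 0.14 in the dimmest 2782 genes and of 0.075 in the brightest 2782. Of the 100 genes with the largest SD, 45 came from those dimmest 2782 genes and 43 fell below background on at least 1 array. The last gene taken had an SD of 0.4915 and the next one 0.4910.

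The 100 most variable genes were taken from 11127, so a list of the size used here would hold few of them. None of the listed genes for type 1 (22 with a value), type 2 (25), ciliated (26), endothelial (27) or fibroblast cells (35) was among them. That 0 lies near this small share, and only 11 of the 100 came from the brightest 2782 genes. The 100 held 7 of 24 genes of the club and airway list, 7 of 22 of the glucocorticoid response and 6 of 27 of B cells. They also held 4 of 28 immediate early genes, 4 of 21 of fat, 3 of 21 of the clock and 3 of 18 of heat shock. Of the 100, 58 were in no list. These genes were chosen for their spread on these arrays, so the values below are a description without a test.

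Heat shock genes gave some of the widest swings at high signal. Hspa1a and Hspa1b encode the inducible cytosolic chaperone Hsp70. Hspa1a stood at 10.43, 11.54, 12.02, 8.76 and 9.62, a span of 9.57-fold. Hspa1b stood at 11.32, 12.37, 12.63, 9.73 and 10.87, and its 2 other probe sets had SDs of 1.32 and 1.42. Replicates 2 and 3 were high and replicate 4 low for both genes, which are near-identical copies whose signals cannot be fully separated. The co-chaperone Hsph1 had its highest value, 11.00, in replicate 3 and its lowest, 8.92, in replicate 4.

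The promoters of this pair are shown because the genes varied together and share nearly all of their upstream sequence. They are the 250 bases upstream of the RefSeq start in GRCm38.p6, on the minus strand, at chr17:34959239-34959488 for Hspa1b and chr17:34972157-34972406 for Hspa1a, with GAANNTTC, a pair of heat shock element units, in capitals.
Hspa1b: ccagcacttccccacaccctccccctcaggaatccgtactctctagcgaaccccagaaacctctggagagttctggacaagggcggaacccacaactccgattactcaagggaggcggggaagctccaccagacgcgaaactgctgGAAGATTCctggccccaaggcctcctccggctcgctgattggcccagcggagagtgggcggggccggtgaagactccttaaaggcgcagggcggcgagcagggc
Hspa1a: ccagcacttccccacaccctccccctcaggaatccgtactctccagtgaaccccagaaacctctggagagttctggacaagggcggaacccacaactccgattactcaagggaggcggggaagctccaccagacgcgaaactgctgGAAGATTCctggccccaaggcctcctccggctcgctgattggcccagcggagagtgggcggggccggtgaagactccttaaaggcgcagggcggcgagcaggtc
The pair differed at 3 of 250 bases, and the match began 104 bases before the start in each. The letters GAANNTTC read the same on both strands. Within the 250 upstream bases they occurred for 7 of the 15 listed heat shock genes with a promoter window and in 6.69% of 32851 promoter windows. The first count is of genes with a match in any of their windows, so the 2 are unlike units. A longer form with 3 heat shock element units was also scanned. It occurred for 2 of the same 15 genes, Hspd1 and Hspe1, and in 0.466% of all 32851 windows. Neither promoter shown here holds that longer form. A match is a description of the letters and not evidence of binding.

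Over all 18 heat shock genes above background, the mean deviation from the normal mean was -0.15, 0.24, 0.54, -0.42 and -0.21 log2 in replicates 1 to 5. Of these genes 15 were highest in replicate 3 and 11 lowest in replicate 4. Of all 10506 genes above background on the 5 arrays, 19.9% were highest in replicate 1, 21.5% in replicate 3, 19.3% in replicate 4 and 22.8% in replicate 5, and 25.6% were lowest in replicate 3 and 13.3% in replicate 4, which is the background for such counts below. The spread was not limited to normal lung, since the same mean ranged from -0.40 to 0.41 among 4T1 arrays and from -0.32 to 0.49 among 67NR arrays.

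Genes that glucocorticoid hormone is known to raise had the same array on top. Fkbp5, a chaperone that binds the receptor, stood at 9.07, 9.90, 11.38, 8.83 and 9.32, and its other probe set above background had an SD of 0.86. Zbtb16, a zinc finger transcription factor, stood at 9.70, 10.50, 11.98, 8.79 and 9.84. Replicate 3 was the highest and replicate 4 the lowest for both, as also for Tsc22d3 (12.71 and 11.21), which encodes the anti-inflammatory protein Gilz. Of its 2 other probe sets above background, 1 had an SD of 0.73 and the same order, and the other an SD of 0.11 and its highest value in replicate 1. Fam107a, which is in none of the lists used here, stood at 7.78, 9.25, 10.60, 8.06 and 8.19, with replicate 3 highest and replicate 1 lowest.

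Over the 19 glucocorticoid response genes above background, the mean deviation was -0.27, 0.16, 0.71, -0.41 and -0.18, and 16 of the 19 were highest in replicate 3, against 21.5% of all genes. Among 4T1 arrays it ranged from -0.07 to 0.57 and among 67NR arrays from -0.43 to 0.20. Some of these genes, Per1 among them, are also in the clock list.

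Clock genes moved less. Per2, a repressor arm of the clock, stood at 9.68, 10.58, 10.89, 9.23 and 10.05. Dbp, an output gene of the clock, stood at 11.98, 11.96, 11.73, 11.66 and 11.85, and Arntl, its activator, at 7.99, 7.65, 7.74, 7.63 and 7.61. Per2 was thus high in replicates 2 and 3 and low in replicate 4, while the probe sets printed for Dbp and Arntl were highest in replicate 1. The other Dbp probe set above background was highest in replicate 2 at 11.85, and the other Arntl probe set in replicate 4 at 7.82, where it was above background on 3 arrays.

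Of 18 clock genes above background 13 were lowest in replicate 4, against 13.3% of all genes, with list means from -0.28 in that array to 0.25 in replicate 3. The list mean ranged from -0.17 to 0.13 among 4T1 arrays and from -1.34 to -0.02 among 67NR arrays, where it lay below the normal mean on every array. The sources used here do not give the hour at which each lung was taken.

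The CACGTG E-box bound by clock activators is shown in the Per1 window because Per1 is in both the glucocorticoid and the clock list and spanned 10.15 in replicate 4 to 11.32 in replicate 2. The window is the 250 bases upstream of 1 of its 2 RefSeq starts at chr11:69098699-69098948, plus strand, GRCm38.p6, with the E-box in capitals. This window was picked for holding the E-box, so the match in it was fixed in advance.
Per1: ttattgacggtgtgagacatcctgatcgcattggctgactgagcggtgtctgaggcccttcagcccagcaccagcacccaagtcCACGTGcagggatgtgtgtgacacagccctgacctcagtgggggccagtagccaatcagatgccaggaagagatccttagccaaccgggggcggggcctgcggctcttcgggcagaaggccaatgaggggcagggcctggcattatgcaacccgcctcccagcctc
The match began 166 bases before the start. The letters CACGTG read the same on both strands. Within the 250 upstream bases they occurred for 5 of the 18 listed clock genes with a promoter window, whatever their level, and in 6.02% of all 32851 windows. Here too the first count is of genes and the share is of windows.

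Immediate early genes, which switch on within minutes of a stimulus, were also uneven. Egr1, a zinc finger factor, stood at 11.63 in replicate 1 and at 10.40, 10.25, 10.32 and 10.33 in the others. Fos, a subunit of the AP-1 factor, stood at 11.09, 10.85, 11.21, 10.23 and 10.30, with replicates 4 and 5 low. Over 22 such genes above background the mean deviation was 0.13, 0.14, 0.12, -0.22 and -0.17.

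Some secreted proteins of the airway separated the 5 arrays in another way. Bpifa1, an antimicrobial and surface-active protein of the airway lining, stood at 9.58, 10.20, 12.16, 12.12 and 12.18. Bpifb1, its relative, stood at 7.76, 7.50, 9.15, 9.56 and 9.77. Scgb3a1, an airway secretoglobin, stood at 10.27, 10.27, 11.36, 11.76 and 11.67. For each of these genes replicates 1 and 2 were low and replicates 3, 4 and 5 high, with no overlap between these arrays. Of the other airway genes among the 100 most variable, Sult1d1 and Ltf split the same way and Gabrp and Muc5b did not. Gabrp was lowest in replicate 3 at 8.94, and Muc5b stood at 7.89 in replicate 2 and 7.84 in replicate 5. Of the 21 airway genes above background on all 5 arrays, 7 were lowest in replicate 1 and 6 in replicate 5, beside 17.0% and 20.9% of all genes. The split of replicates 1 and 2 from the others was not particular to airway genes. On the probe sets used, all 4 fat genes among the 100 (Adipoq, Car3, Fabp4 and Thrsp) and the muscle genes Nppa and Mb had it too.

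Reg3g, an antimicrobial lectin whose mean was under background, showed the same split, at 4.96 and 4.85 in replicates 1 and 2 and at 7.81, 8.81 and 7.50 in the others. Scgb1a1, Cbr2 and Cyp2f2, the genes of the airway list among the 25 brightest, did not, and each was lowest in replicate 5. The 100 brightest genes as a set also had their lowest mean deviation in replicate 5, so that order was not particular to airway genes. The SD of Bpifa1 was 1.26 in normal lung, 0.21 in 4T1 lung and 1.15 in 67NR lung.

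B cell genes had another order. Cd79a, a subunit of the B cell receptor, stood at 9.75, 8.78, 8.41, 9.31 and 9.18, with replicate 1 highest and replicate 3 lowest. Of 23 B and plasma cell genes above background 20 were highest in replicate 1 and 15 lowest in replicate 3, against 19.9% and 25.6% of all genes. The list mean ranged from -0.37 to 0.38 across normal arrays. It ranged from -0.30 to 0.38 among 4T1 arrays and from -0.25 to 0.22 among 67NR arrays. Of 9 genes of NK and cytotoxic cells 7 were highest in replicate 1 too, against the same 19.9%.

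Muscle, fat and red cell genes varied as well. Nppa, the atrial natriuretic peptide, stood at 8.01, 7.24, 8.49, 10.20 and 8.73, and Mb, which encodes myoglobin, at 7.82, 6.74, 8.86, 9.08 and 8.63. Both of these genes were lowest in replicate 2 and highest in replicate 4. The heart list as a whole had another order, with 8 of 16 genes above background highest in replicate 5, 6 in replicate 4, and 9 lowest in replicate 1. Adipoq, the fat cell hormone adiponectin, stood at 7.56, 7.32, 8.83, 8.20 and 8.55, and 10 of 11 fat genes above background were highest in replicate 3, against 21.5% of all genes. Of 8 red cell genes above background 6 were highest in replicate 4, against 19.3% of all genes.

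The lists differed widely in how far their means spanned the normal arrays. The span was 0.06 log2 between the lowest and highest normal array for type 2 cells, 0.21 for endothelial cells and 0.06 for ribosomal proteins, against 1.13 for the glucocorticoid response, 0.96 for heat shock and 0.75 for B cells. Among those between them were red cells at 0.60, fat at 0.56, the clock at 0.53 and the cell cycle at 0.47. Club and airway cells spanned 0.41, heart 0.39, ciliated cells and neutrophils 0.36 and NK cells 0.35. Replicate 3 was on top for heat shock, the glucocorticoid response and fat, but not for these alone. It held the highest value for 13 of 17 hypoxia and glycolysis genes and 11 of 16 ciliated cell genes. The same held for 10 of 18 clock and 10 of 21 airway genes, against 21.5% of all genes. Replicate 3 also had the highest actin 3' to 5' ratio, and the part of RNA quality in these spans was not tested.

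**Figure D3:**
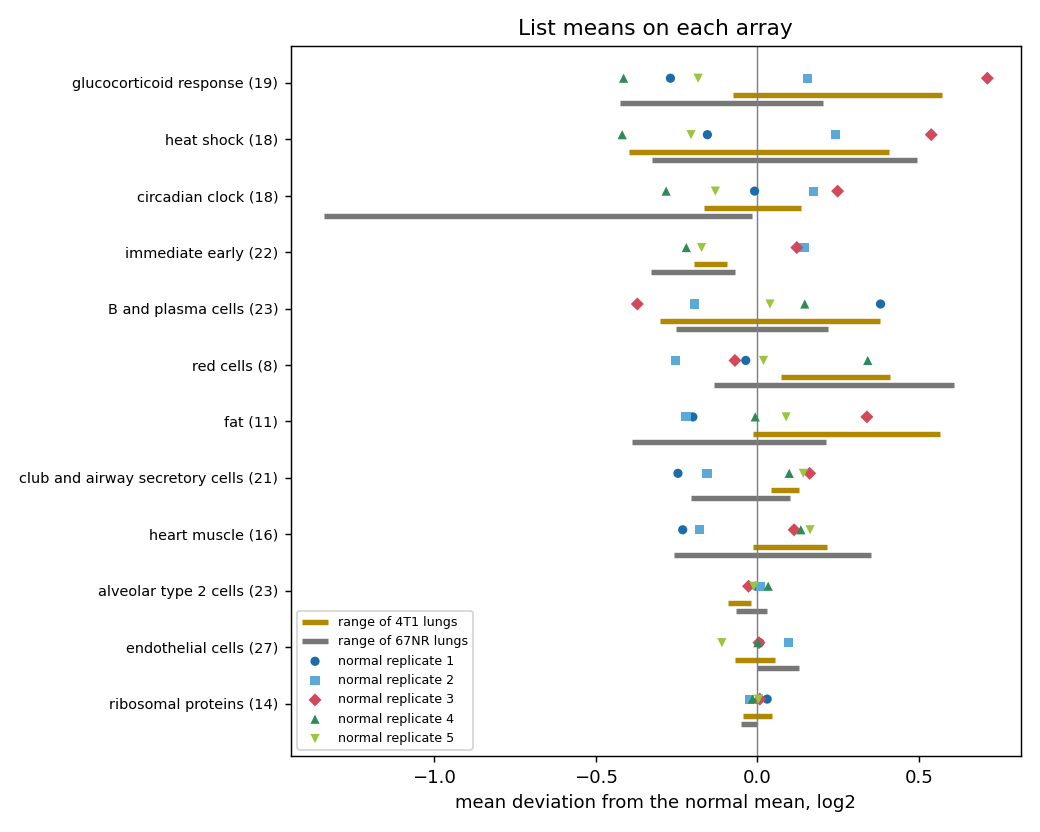
Mean deviation of 12 gene lists from their normal mean, in log2 units, with 1 symbol per normal array and horizontal lines for the range of the 4T1 and 67NR arrays; the number of genes stands in brackets. Replicate 3 lies at 0.71 for the glucocorticoid response and 0.54 for heat shock, while the symbols for type 2 cells and ribosomal proteins overlap near 0.

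Other highly variable genes were out of line on 1 array or had no support from a second probe set. Zap70, a T cell signalling kinase with the largest SD of all at 1.50, stood at 9.52, 7.30, 9.41, 9.81 and 6.52, but another of its probe sets varied by an SD of only 0.061 at 7.50. Sox21, a Sox family transcription factor, was at 5.32 in replicate 1 and between 7.98 and 8.72 on the others. Zswim5, a zinc finger gene, was at 5.06 in replicate 3 and between 7.77 and 7.95 on the others. Of the 100 most variable genes 26 had a further probe set above background, of which 15 had an SD above 0.3 and 11 did not.

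The remaining genes of the 25 most variable were Cyp26b1 (retinoic acid degradation), Sgsm2, Nrip2, Pax9, Pkmyt1, Hoxa9, Sh3tc1, Prdm8, Wfdc12, Anpep, Rhbdf2 and the antibody segment Ighv14-2. Cyp26b1 stood at 9.29, 8.28, 8.47, 10.01 and 6.19, a span of 14.1-fold, the widest of the 25. Of these 12 genes only Pkmyt1 had another probe set above background on most arrays. It stood at 8.14, 7.31, 6.31, 8.46 and 8.61, highest in replicate 5, where the probe set used was lowest at 6.11, so the pair disagreed. Each of the 12 was below background on at least 1 array.

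**Figure D4:**
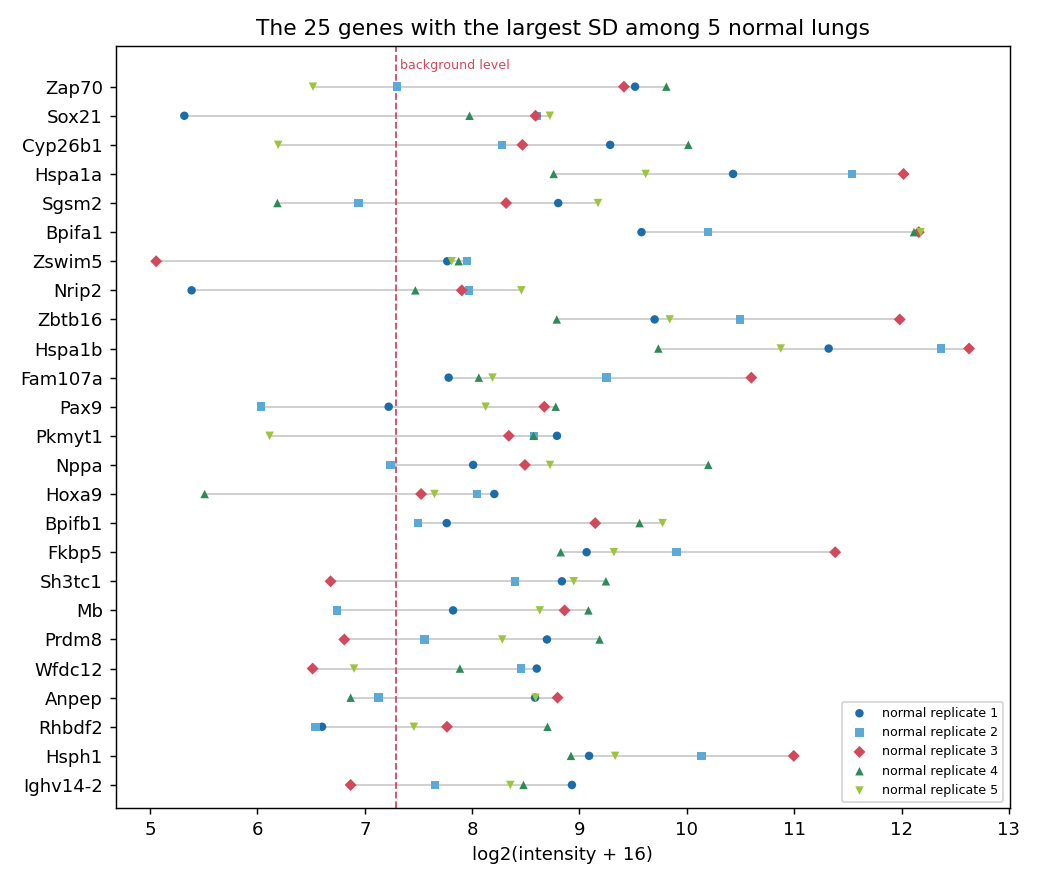
Levels of the 25 genes with the largest SD, as log2(intensity + 16), with 1 symbol per normal array, a line from the lowest to the highest and a dashed line at background (7.29). Replicate 3 is at the right for Hspa1a, Zbtb16, Fkbp5 and Hsph1, while Sox21 and Zswim5 have 1 array far below the others.

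The spread of these genes could be checked in lungs that had no part in choosing them. The median SD of the 100 genes was 0.62 in normal lung, 0.43 among the 4 4T1 lungs and 0.47 among the 5 67NR lungs, where the median over all genes was 0.094 and 0.11. In 4T1 lungs 86 of the 100 genes, and in 67NR lungs 83, had an SD over the value that 10% of genes exceed (0.21 and 0.25). Of the 100, 46 were also among the 100 most variable in 4T1 lung and 41 in 67NR lung. Sox21 and Zswim5, each with 1 low normal array, had smaller SDs there, of 0.24 and 0.22 in 4T1 lung against 1.44 and 1.25 in normal lung.

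**Figure D5:**
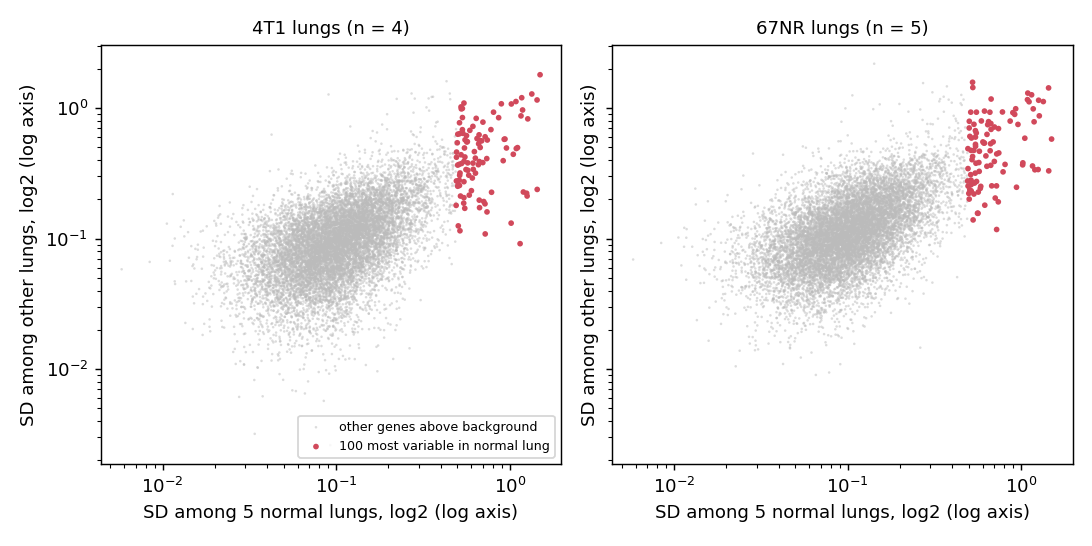
SD of each gene above background among the 4T1 lungs (left) and the 67NR lungs (right) against its SD among the 5 normal lungs, in log2 units on log axes. The 100 genes most variable in normal lung, in red, lie mostly at the top of both clouds, with medians of 0.43 and 0.47.

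Finally, the bright and the variable genes were looked up in the comparisons of tumour-bearing with normal lung, which asked what an early tumour elsewhere changes in the lung. Of 10916 genes tested with limma (Benjamini-Hochberg adjusted p under 0.05), 45, or 0.412%, were called in 4T1 lung, all higher, and 0 (0%) in 67NR lung, where 997 genes had an unadjusted p under 0.05 against 716 in 4T1 lung. Both comparisons use the same normal arrays. None of the 100 brightest genes was called in either, and their smallest limma adjusted p was 0.677 in 4T1 and 0.598 in 67NR lung. Their median log2 difference was -0.02 in 4T1 and -0.01 in 67NR lung, beside -0.00077 and -0.0010 over all genes.

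Of the 100 most variable genes 97 were tested. In 4T1 lung 1 was called, Slfn4, a Schlafen gene of myeloid cells, which stood at 8.80, 7.92, 8.16, 8.14 and 9.08 in normal lung and was higher by 2.01 log2 (SE 0.25, limma adjusted p = 0.00064). That is 1 of 97, beside 0.412% of all genes tested. In 67NR lung 0 were called, with a smallest limma adjusted p of 0.30. The median difference of the 97 was 0.21 in 4T1 and 0.03 in 67NR lung. Bpifa1 differed by 0.95 log2 in 4T1 lung (SE 0.61, limma adjusted p = 0.897), less than its own normal span of 2.60.

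Among the baseline lists, calls in 4T1 lung fell in the neutrophil and monocyte lists only. Of 21 neutrophil genes tested 12 rose, beside 0.412% of all genes tested, with a list median of 1.29. Among them were S100a8, by 2.38, and S100a9, by 2.48 log2. The monocyte list held 1 call of 27 genes tested, the Fc receptor Fcgr4. The lists for type 1, type 2, club, ciliated, endothelial and fibroblast cells, for B and T cells and for red cells held 0 calls. With 9 to 34 genes tested in each, 0 calls is near the 0.412% of all genes. All lists in 67NR lung held 0 calls too, beside 0% of all genes. With 4 or 5 arrays a group, a missed threshold does not show equal levels.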

How the data were processed

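Total RNA from perfused lungs was hybridised to Affymetrix mouse arrays, 1 per sample. The deposited table holds linear intensity values per probe set, already on a common scale. The sources used here do not give how the authors summarised, background-corrected and normalised them, nor the genome build. Detection calls were not used. Samples were grouped by their titles. The number of arrays limits the precision.

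Gene names came from the 2016 platform annotation: 34958 carried 1 symbol and were used, 932 carried several and 9211 were unnamed here. Entrez identifiers of 34754 matched RefSeq, and 0 symbols changed. Levels are log2(intensity + 16), with no normalisation added, which understates differences of dim genes. Each gene was read from its brightest probe set by mean over all 14 arrays. Background was the 95th percentile of 85 chemosensory receptor probe sets. Variable genes were ranked by SD over the 5 normal arrays among genes with a mean above background.

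Tumour groups were compared with normal lung in limma 3.58.1 (R 4.3.3, lmFit and eBayes) on all 14 arrays, over the upper 60% of genes by mean level, with two-sided Benjamini-Hochberg adjusted p under 0.05 as the threshold. The step was tested on simulated data. Other values came from Python 3.11.15 with numpy 2.4.6 and pandas 2.3.3. Promoter sequences are RefSeq's, and the motif scan covered the upstream 250 bases of 32851 windows.

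The 41 lists held 935 genes, of which 839 had a value. Named genes were the 25 brightest, the 25 with the largest SD, the 3 brightest and the most variable member of a list, list members under background, called members and a set of prior interest. Cd79a, Scgb3a1, Per1, Tsc22d3, Csf1r, Hopx and a few others were added after their values were seen. The members and lists were chosen with earlier results of these data known. Alternatives covered offsets, filters, quantile normalisation, the choice of probe set, other background levels, a replicate block and leaving out each array.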

Additional observations from a re-analysis of the deposited data

Results flagged for a closer look

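The highest or lowest of the 5 normal arrays stood far from the rest for 7 of 104 values examined (25 brightest and 25 most variable genes, further named genes and list means), by the gap to the nearest array divided by the whole range, with a limit of 0.71 for 5 arrays. Chance does this in about 1 in 20 groups, and genes picked for their spread are not a fair draw.

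The lowest array stood apart for Sox21 (0.780, replicate 1), Zswim5 (0.936, replicate 3), Pkmyt1 (0.832, replicate 5) and Hoxa9 (0.747, replicate 4), and in each case that array was below background. Egr1 (0.894) was highest in replicate 1. The mean of the platelet list (0.712) was highest in replicate 4, and that of the hypoxia and glycolysis list (0.787) in replicate 3.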

How the results depend on the processing

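The labels give replicate numbers but no pairing, and 3 of 9 same-numbered pairs correlated above 0.1 (range -0.33 to 0.23). With so few arrays a group, these values cannot settle whether same-numbered samples share more than a number. A replicate block gave 45 calls in 4T1 and 0 in 67NR lung. The 4T1 comparison gave 29 calls when only those 2 groups were fitted and 33 to 67 with 1 array left out. The 67NR comparison gave 1 call when all genes were tested and 0 with any array left out. Of the 25 brightest genes 15 were shared when the probe sets of a gene were averaged, and 24 to 25 with 1 normal array left out. Of the 100 most variable genes 56 were shared by median absolute deviation, 20 with no background filter, 57 among genes above background on all 5 arrays (a setting chosen after seeing the data) and 71 to 84 with 1 normal array left out. Their median SD in 4T1 lung was 0.396 at an offset of 64, 0.380 with probe sets averaged and 0.369 to 0.439 with 1 array left out. In 67NR lung these were 0.40, 0.395 and 0.422 to 0.536. The number of genes above background on all 5 arrays was 10035 at the 99th percentile, 8851 against genes of distant tissues, 13824 against unspiked controls, 8671 with probe sets averaged and 10499 to 10881 with 1 array left out. Of 210 recomputed SDs of the 25 most variable genes 19 moved by more than 1.5 times, 7 of them without replicate 3, and these leave out genes that fell under background in a setting, such as 6 with probe sets averaged. The cause of these differences was not tested. Signal near background limits the dim genes, 43 of the 100 most variable among them.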
